A study of Mus musculus with 8 samples.

Results

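The comparison described here set the epidermis of REDD1 KO mice treated with fluocinolone acetonide (FA) against that of wild-type mice given the same FA. Its members are 4 of the 8 arrays in the series, 2 REDD1 KO FA arrays and 2 wild-type FA arrays, chosen by the genotype and treatment in their titles. The other 4 arrays, 2 of REDD1 KO and 2 of wild-type epidermis without FA, served to ask which genotype differences were also present without the steroid. REDD1 is the product of Ddit4. The comparison asks how the transcriptome of the epidermis under a topical glucocorticoid depends on REDD1.

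FA was applied once to the back, at 2 µg per animal in 200 µl of acetone, to 7-week-old females in the resting phase of the hair cycle, and the epidermis was taken 24 h later by scraping. Control animals received acetone alone and are called vehicle here. In the KO, a LacZ/neo cassette takes the place of exon 2 of REDD1 in every cell of the animal, so the loss is not limited to keratinocytes. Wild-type animals were isogenic B6x129 females from a commercial breeder, not stated to be littermates of the KO. The paper describes each array as 1 animal. The sample labels differ from the paper in 3 respects: they give the strain as B6D2, the source as the posterior ear lobe and the controls as untreated.

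As background, REDD1 is a small stress-response protein that lowers mTOR complex 1 activity through the TSC1-TSC2 complex, and its gene is induced by hypoxia, energy shortage and glucocorticoids. FA is a synthetic glucocorticoid. It binds the glucocorticoid receptor, which moves to the nucleus, activates genes with glucocorticoid response elements and represses many inflammatory genes. The epidermis scraped from mouse skin holds keratinocytes at all stages of differentiation, hair follicle and sebaceous gland cells, and resident immune cells. Sebaceous cells make wax esters, triglycerides and very long chain fatty acids, and keratinocytes of the upper layers make the cornified envelope and the barrier lipids.

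RNA was hybridized to Illumina MouseRef-8 v2.0 bead arrays, and values are background-corrected, quantile-normalized log2 signals, on which 1 unit is a doubling. Across the 8 arrays 44.5% to 46.7% of the 25697 probes were detected above the negative controls, and the 13131 probes detected on at least 2 arrays were tested. All 11 tested basal keratinocyte genes were detected on every FA array. The REDD1 KO FA replicates correlated at r = 0.976 and the wild-type FA replicates at r = 0.990, and the difference between replicates had an SD over probes of 0.453 in REDD1 KO FA and 0.291 in wild-type FA epidermis. REDD1 KO FA replicate 1 stood apart in its muscle genes: the signal summed over 22 muscle markers was 46679 and 979 in REDD1 KO FA epidermis, against 5490 and 2062 in wild-type FA epidermis. None of the 22 passed the test, although their median log2 difference was 0.96, and it was -0.94 without that array. With 2 arrays a group, p-values measure only the spread between these samples.

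Under FA, 940 probes differed between the genotypes at an adjusted p under 0.05 (limma, Benjamini-Hochberg over all tested probes), which is 7.16% of those tested. Of these, 412 probes of 358 genes were higher (3.14% of those tested) and 528 probes of 450 genes were lower (4.02%) in REDD1 KO FA epidermis. Large differences lay mostly on the lower side: 271 lower and 137 higher calls had a log2 difference of at least 1, and 71 lower and 9 higher calls one of at least 2. In 64 of the lower calls both REDD1 KO FA arrays were below background, and in 30 of the higher calls both wild-type FA arrays were. The split between the directions moved with the scaling, since median centring in place of quantile normalization gave 193 higher and 405 lower calls. The counts rested on single arrays, most of all on the wild-type FA pair, with 26 higher and 65 lower calls without wild-type FA replicate 2 and 54 and 154 without replicate 1. They were 234 and 273 without REDD1 KO FA replicate 1, and 192 and 250 without replicate 2. Each of these 4 reduced fits kept the call of 22 higher and 56 lower probes.

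Without FA, the same genotype comparison, made on the other 4 arrays, called 67 probes, 0.51% of those tested, 22 higher (0.168%) and 45 lower (0.343%). Of these, 60 were also called under FA, 17 higher and 43 lower, which is 89.6% of the vehicle calls and 6.38% of the FA calls, and none was called in the opposite direction. The 60 differed by about as much in both treatments, with a median log2 difference of -1.62 under FA and -1.58 with vehicle for those lower in the KO, and 1.24 and 1.22 for those higher. The other 880 FA calls had smaller vehicle differences, which their choice by a call under FA and none with vehicle favours. The values given for them only describe this set. The 485 lower ones had a median of -0.99 under FA and -0.25 with vehicle, and the 395 higher ones 0.88 and 0.26. Of the 880, 723 had the same sign in both treatments, a share that was not counted over all tested probes. When the change of the genotype difference with FA was itself tested, 4 probes passed, 0.0305% of those tested. A further reading at an unadjusted p under 0.05 gave 1302 probes, 548 of them among the 880. A call under FA without a call with vehicle is therefore not, by itself, a difference that depended on FA.

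**Figure D1:**
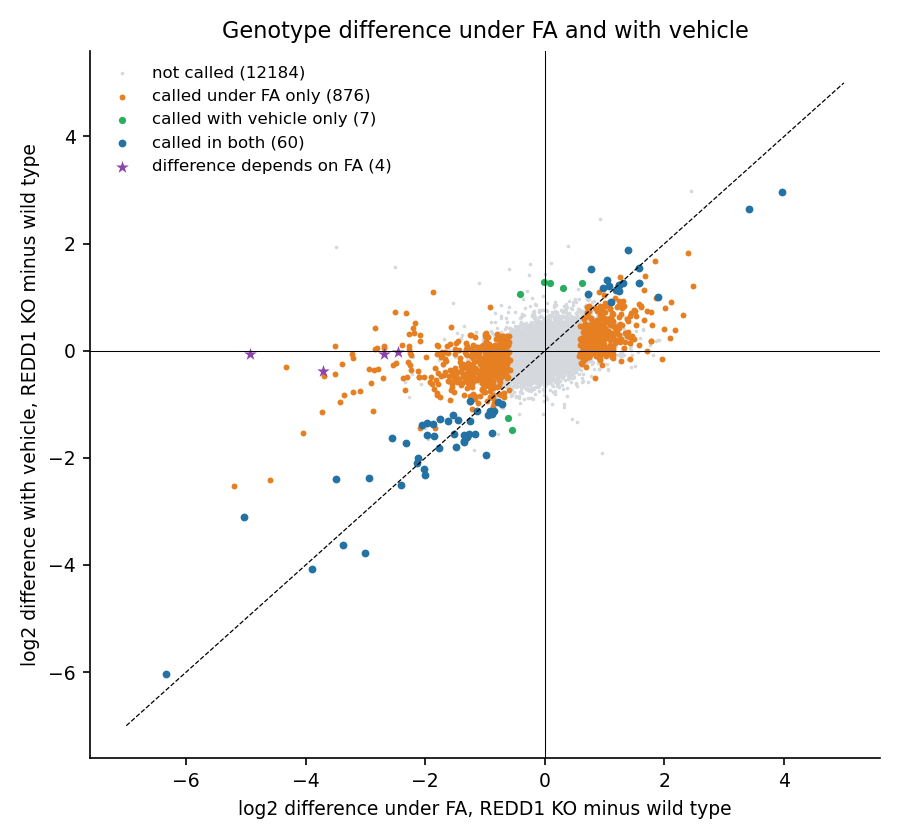
Genotype difference (REDD1 KO minus wild type, log2) under FA and with vehicle for each tested probe. The 60 probes called in both treatments lie near the diagonal, and the 4 probes whose difference depended on FA (Defb8, Mgll, Mpo and Acot5) lie near 0 with vehicle. Most of the 876 called under FA alone lie closer to 0 with vehicle, a position that choosing them by the absence of a vehicle call favours.

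Ddit4 itself had log2 signals of 7.88 and 8.35 in REDD1 KO FA epidermis, against 10.98 and 11.14 in wild-type FA epidermis. The groups did not overlap (log2 difference -2.95, SE 0.29, adjusted p = 0.00186). The FA groups did not overlap for 56% of all tested probes and for all 940 calls, so a separation adds little to a call. With vehicle its signals were 7.42 and 7.09 in the KO and 10.08 and 9.16 in the wild type (difference -2.37, adjusted p = 0.0096). The signal in the KO stayed above background in both treatments, and the sources used here do not say whether the probe lies within the replaced exon. Ddit4l, which encodes the related mTOR inhibitor REDD2, had a log2 difference of 1.26 that did not pass (adjusted p = 0.125). Among 438 tested genes of chromosome 10, which carries Ddit4, 15 were higher and 23 lower, 8.68% against 7.37% of all tested genes at 1 probe per gene. Of the 15 tested genes on either side of Ddit4, Nus1, a subunit of dehydrodolichyl diphosphate synthase, and Ppa1, the cytosolic inorganic pyrophosphatase, were called. Their log2 differences were -0.69 for Nus1 (adjusted p = 0.0435) and -1.68 for Ppa1 (adjusted p = 0.00372). With vehicle they were 0.24 for Nus1 and -0.02 for Ppa1, and neither was called. Ppa1 kept its call without each of the 8 arrays, while Nus1 lost it without any one of them (adjusted p 0.0519 to 0.252).

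The genes with the largest deficits included a group that was low in the KO whether or not FA was given. Adh7, an alcohol dehydrogenase that oxidizes retinol, had log2 signals of 4.29 and 4.17 in REDD1 KO FA epidermis, below background, against 10.42 and 10.70 in wild-type FA epidermis. It was at least 59.6-fold lower in the KO (adjusted p = 8.87e-07), the largest log2 difference of all calls at -6.33, and -6.04 with vehicle. A single probe of Me1, the malic enzyme that supplies NADPH for lipid synthesis, behaved likewise, at 4.41 and 4.32 against 8.27 and 8.25, at least 12.1-fold lower (adjusted p = 0.000156). The other Me1 probe, which was brighter, differed by only -0.26 (adjusted p = 0.414), so the 2 probes disagree.

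Cyp2f2, a cytochrome P450 that acts on small aromatic compounds, had 4.83 and 5.30 in REDD1 KO FA epidermis against 9.75 and 10.43 in wild-type FA epidermis (log2 difference -5.03, SE 0.46, adjusted p = 0.00119). Gch1, GTP cyclohydrolase, the first enzyme of tetrahydrobiopterin synthesis, had 4.95 and 5.55 against 8.61 and 8.86 (difference -3.49, adjusted p = 0.000438), and its second tested probe, below background in the KO, was at least 2.31-fold lower (adjusted p = 0.00465). These 2 genes were also lower with vehicle, at -3.10 for Cyp2f2 and -2.39 for Gch1. One probe of the ribosomal protein gene Rpl29 was at least 8.64-fold lower under FA, with a log2 difference of -3.37 there and -3.64 with vehicle, while its brighter probe differed by -0.61 (adjusted p = 0.0465). Mak16, a ribosome biogenesis factor, showed the same split, with one probe at least 4.47-fold lower and the other at -0.27 (adjusted p = 0.333). H2-T10, a non-classical class I MHC gene of a family with closely related copies, differed by -1.35 under FA and -1.70 with vehicle. All of these calls, and that of Ddit4, were kept without each of the 8 arrays, except that of the brighter Rpl29 probe, which was lost without any one of them (adjusted p up to 0.212).

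**Figure D2:**
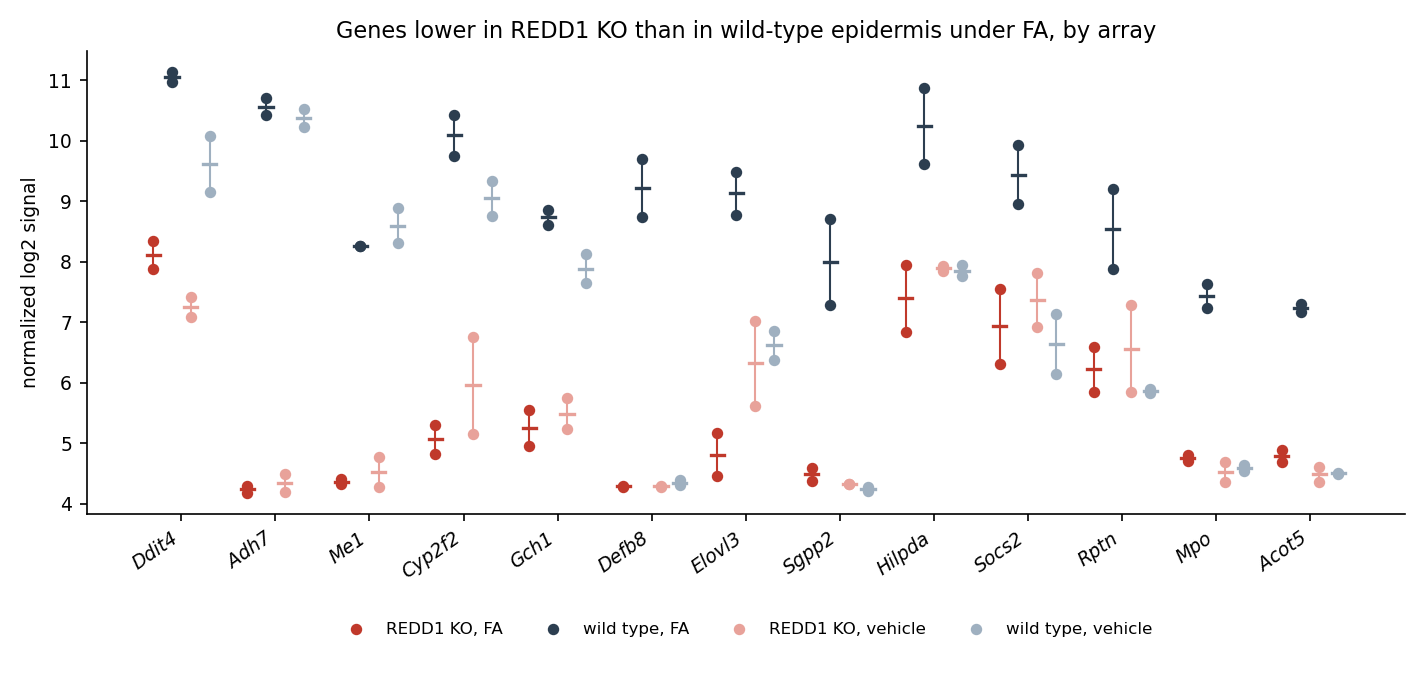
Log2 signal of 13 genes that were lower in REDD1 KO FA than in wild-type FA epidermis, on each of the 8 arrays, with group means as horizontal ticks. Ddit4, Adh7, Me1, Cyp2f2 and Gch1 are also low in the KO with vehicle, whereas Defb8, Sgpp2, Mpo and Acot5 are near background on all arrays other than the wild-type FA pair.

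The 4 genes whose genotype difference depended on FA were bright, or brighter, in wild-type FA epidermis. Defb8, a beta-defensin, had log2 signals of 4.30 and 4.28 in REDD1 KO FA epidermis against 9.70 and 8.74 in wild-type FA epidermis, at least 23.5-fold lower in the KO (adjusted p = 0.000104). With vehicle it was at background in both genotypes, at 4.28 and 4.29 in the KO and 4.30 and 4.40 in the wild type. The genotype difference under FA minus that with vehicle was -4.87 on the log2 scale (SE 0.376, adjusted p = 0.00485). Signal for this defensin was thus seen on the wild-type FA arrays and on none of the other 6. Its probe therefore passed the detection filter only through that pair. With no probe filter, 0 probes were called for dependence on FA.

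Mpo, myeloperoxidase, an enzyme of neutrophil granules, had 4.80 and 4.71 in REDD1 KO FA epidermis against 7.24 and 7.64 in wild-type FA epidermis (log2 difference -2.69, adjusted p = 0.000324), and -0.06 with vehicle. Its other probes differed by -0.86 (adjusted p = 0.0253) and -0.27 (adjusted p = 0.349). The probe at -0.86 was detected on the wild-type FA arrays alone and passed the filter through them. Other neutrophil granule genes of the antimicrobial list, Elane, Camp, Ltf and Bpi, were not detected on any FA array. Acot5, a peroxisomal acyl-CoA thioesterase, had 4.69 and 4.89 against 7.30 and 7.17 under FA (difference -2.45, adjusted p = 0.000264), and -0.02 with vehicle. For both, wild-type FA epidermis was the group that stood apart. Mgll, monoacylglycerol lipase, had 3 tested probes, all called under FA, at -3.71, -3.40 and -2.39. The test of dependence on FA passed for the dimmest of them, which had 4.79 and 5.19 in REDD1 KO FA epidermis against 8.30 and 9.10 in wild-type FA epidermis. With vehicle this probe had 6.25 and 6.69 in the KO and 6.93 and 6.75 in the wild type. It was thus lower with FA in the KO (-1.48, limma adjusted p = 0.0206) and higher with FA in the wild type (1.86, adjusted p = 0.00723).

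Other genes were likewise brighter in wild-type FA epidermis without passing that test. Elovl3, the elongase of very long chain fatty acids in sebaceous glands, had log2 signals of 4.46 and 5.16 in REDD1 KO FA epidermis against 8.78 and 9.49 in wild-type FA epidermis (difference -4.32, adjusted p = 0.00194), and differed by -0.30 with vehicle. With FA it was 2.52 higher in the wild type (limma adjusted p = 0.0135) and 1.51 lower in the KO, which did not pass (adjusted p = 0.0975). Sgpp2, a sphingosine-1-phosphate phosphatase, had 4.38 and 4.59 against 7.29 and 8.71, at least 10.1-fold lower (adjusted p = 0.00207). Like Defb8 it was detected on the wild-type FA arrays alone and passed the filter through them. Wfdc12, a whey acidic protein family inhibitor of proteases, had 4.84 and 5.01 against 6.85 and 8.66 (difference -2.83, adjusted p = 0.0107). Elovl3, Sgpp2 and Wfdc12, like the 4 genes above at the probe given, kept their call under FA without each of the 8 arrays, though Wfdc12 lost it without background correction and with no probe filter (adjusted p up to 0.0522).

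The gene lists differed widely in how many of their members were called, beside 7.37% of all 9343 tested genes (3.53% higher, 3.84% lower, median log2 difference 0.04). With vehicle, 0.524% of these genes were called, 0.193% higher and 0.332% lower. Several lists were called in both directions, such as hair shaft keratins and their associated proteins, with 2 of 12 lower and 2 higher.

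**Figure D3:**
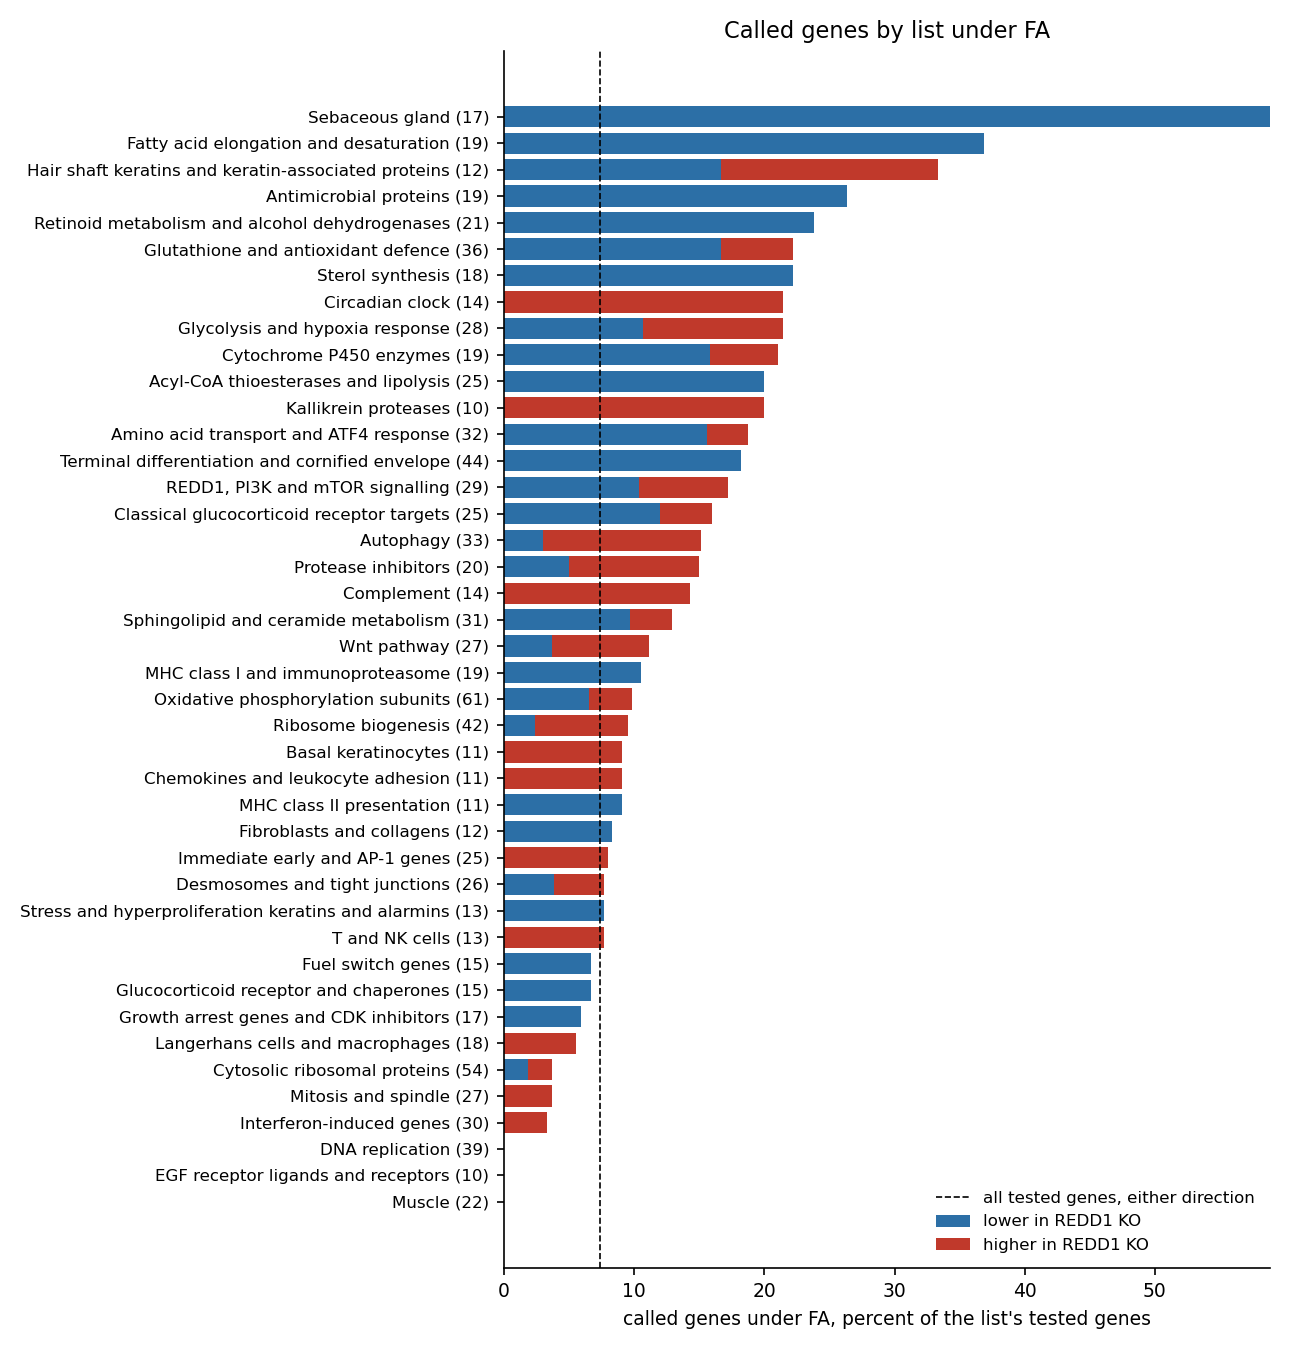
Percent of the tested genes of each list (lists with at least 10 tested genes) that were called lower or higher in REDD1 KO FA against wild-type FA epidermis, with the number tested in parentheses. The dashed line marks the 7.37% of all tested genes that were called, and the sebaceous gland list stands farthest from it, with 10 of 17 genes lower and none higher.

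Sebaceous gland genes had the largest share. Of 17 tested, 10 were lower and 0 higher (58.8%), with a median log2 difference of -2.01 under FA and -0.30 with vehicle, and 15 of the 17 lay below 0. Besides Elovl3 the list held Fa2h, the fatty acid 2-hydroxylase, with 6.75 and 8.77 in REDD1 KO FA epidermis against 11.26 and 11.66 in wild-type FA epidermis (difference -3.70, adjusted p = 0.0113). Krt79, a keratin of the sebaceous duct and upper hair follicle, had 6.75 and 8.11 against 9.97 and 11.05 (difference -3.09, adjusted p = 0.00997). Cidea, a lipid droplet protein, had 6.30 and 8.41 against 10.40 and 11.04 (difference -3.37, adjusted p = 0.0369). On both REDD1 KO FA arrays these genes lay below both wild-type FA arrays, with replicate 1 the lower of the KO pair. The KO pair lay below in 26.6% of all tested probes. In a bulk sample of this kind, fewer sebaceous cells and less of these RNAs per cell cannot be told apart.

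The remaining called members were the lipid droplet coats Plin2 (-2.70) and Plin5 (-1.74), Acot5, Far1 (-2.25), which makes fatty alcohols for wax esters and ether lipids, the fatty acid carrier Fabp5 (-2.01) and the desaturase Scd1 (-1.36). Pparg, the nuclear receptor that directs sebocyte differentiation, had a log2 difference of -2.08 that did not pass (adjusted p = 0.0538), and Awat2, a wax ester synthase, one of -1.29 (adjusted p = 0.26). Mc5r, the melanocortin receptor of sebocytes, had one of -0.81 (adjusted p = 0.193), and Acsbg1, Prdm1, Scd2 and Dgat2 lay between -0.01 and 0.11. Signal summed over the 17 genes was 8112 and 10830 in REDD1 KO FA epidermis and 17590 and 23928 in wild-type FA epidermis. Vehicle arrays had 13887 and 20182 in the KO and 23595 and 17493 in the wild type, so the lowest sums of the 8 were those of the REDD1 KO FA pair. The count of lower genes was 7 without REDD1 KO FA replicate 1, 10 without replicate 2, 6 without wild-type FA replicate 1 and 3 without replicate 2. Of the 4 genes given with their signals, Elovl3 kept its call without each array, and Fa2h, Krt79 and Cidea lost theirs without wild-type FA replicate 2 (adjusted p 0.0963 to 0.201). Fa2h and Cidea also lost it without wild-type FA replicate 1 (0.0583 and 0.122), and Cidea without REDD1 KO FA replicate 1 (0.122).

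**Figure D4:**
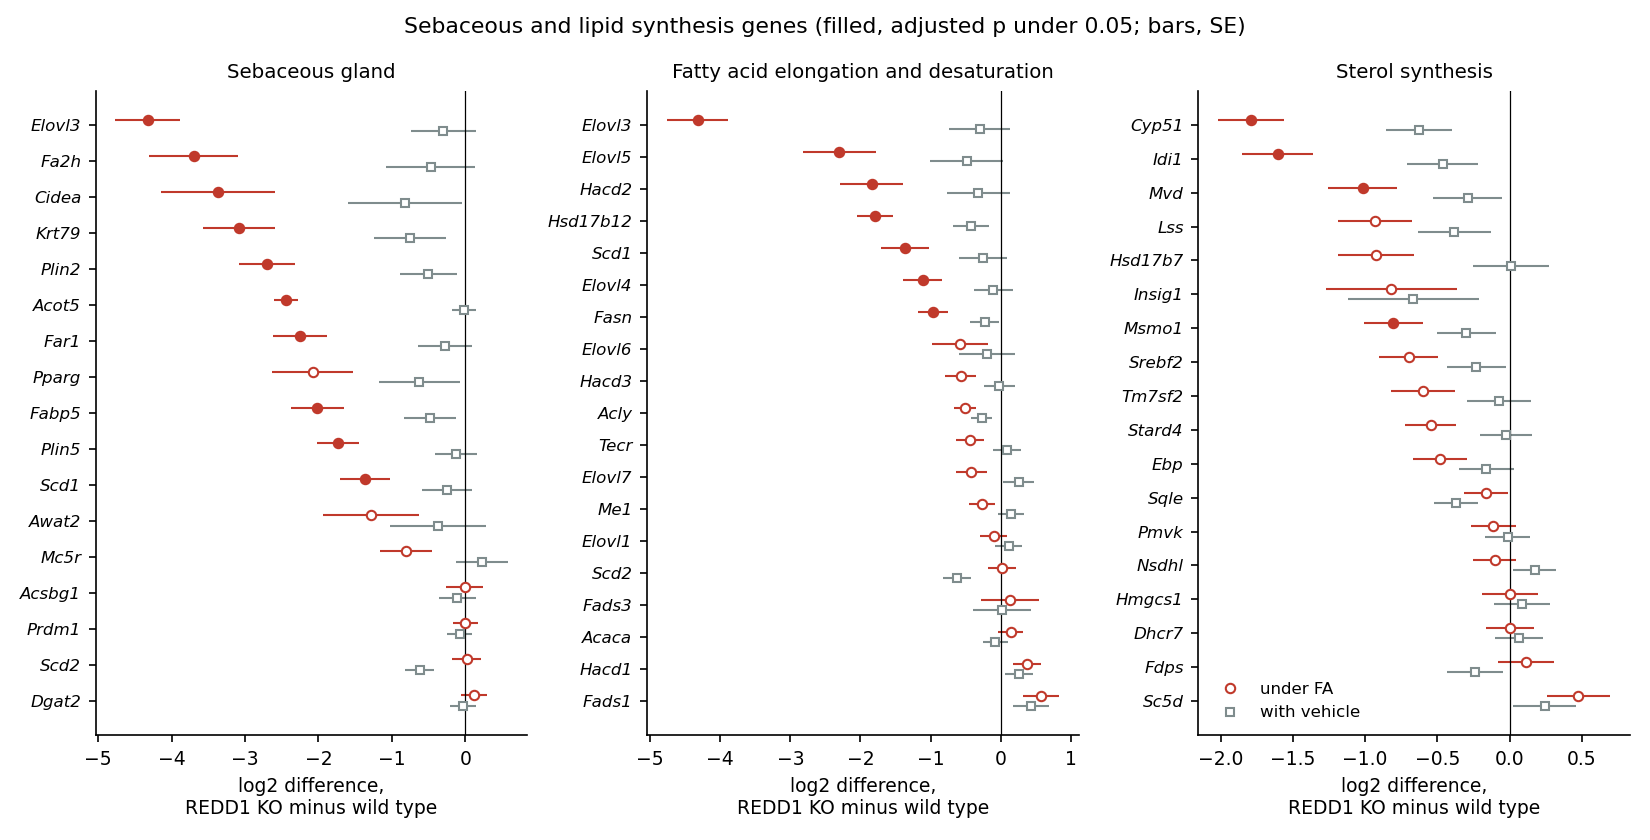
Log2 difference (REDD1 KO minus wild type) of each tested gene of the sebaceous gland, fatty acid elongation and sterol synthesis lists, under FA (circles) and with vehicle (squares), with bars for 1 SE and filled symbols for an adjusted p under 0.05. Filled symbols are all under FA and all below 0, with 10 of 17, 7 of 19 and 4 of 18 genes.

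In the list of fatty acid elongation and desaturation 7 of 19 genes were lower and 0 higher (36.8%, median -0.51), and 2 of the 7, Elovl3 and Scd1, are also sebaceous list members counted above. After Elovl3, the largest differences were those of Elovl5, an elongase of polyunsaturated fatty acids, at 9.14 and 10.87 in REDD1 KO FA epidermis against 12.03 and 12.59 in wild-type FA epidermis (difference -2.30, adjusted p = 0.034), Hacd2 (-1.84, adjusted p = 0.0436), a dehydratase of the elongation cycle, and Hsd17b12 (-1.79, adjusted p = 0.00712), its ketoacyl-CoA reductase. Fasn, fatty acid synthase, was lower by a smaller amount, with a log2 difference of -0.96 (adjusted p = 0.0317).

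In sterol synthesis 4 of 18 genes were lower and 0 higher (22.2%, median -0.57), and all 4 are enzymes of the pathway from mevalonate to cholesterol. Cyp51, lanosterol demethylase, had 7.43 and 7.73 in REDD1 KO FA epidermis against 9.19 and 9.56 in wild-type FA epidermis (difference -1.79, adjusted p = 0.00456). Idi1 differed by -1.61 (adjusted p = 0.00904), Mvd by -1.02 (adjusted p = 0.0386) and Msmo1 by -0.80 (adjusted p = 0.0486). Sphingolipid genes were mixed, with 3 of 31 lower and 1 higher (12.9%). Sgpp2, the dihydroceramide desaturase and hydroxylase Degs2 (at least 5.29-fold lower, adjusted p = 0.022) and the ceramide synthase Cers4 (-2.11, adjusted p = 0.0347) were lower. The lysosomal sialidase Neu1 was higher (1.00, adjusted p = 0.0122). Degs2, like Sgpp2, was detected on the wild-type FA arrays alone and passed the filter through them. Both are among the 3 lower sphingolipid calls, so that share rests in part on the group in which they were high. Fits with 1 array left out used the probes chosen on all 8 arrays, and are no check of the calls of Sgpp2 and Degs2. A second Cers4 probe, at -0.90, did not pass (adjusted p = 0.0712). Of these 11 lipid genes named after the sebaceous ones, Sgpp2 included and Fasn left out, Sgpp2 alone kept its call without each array. Without wild-type FA replicate 2 all but Sgpp2 and Degs2 lost theirs (adjusted p 0.0529 to 0.25), and without REDD1 KO FA replicate 1, 6 did, Degs2 among them (0.0541 to 0.167). Without replicate 2 of the KO the call was lost by 3 genes (Degs2, Mvd and Neu1, 0.0577 to 0.125), without wild-type FA replicate 1 by 7 (0.0702 to 0.199), and without any 1 vehicle array by Msmo1 (0.057 to 0.0709).

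Genes that break down acylglycerols and acyl-CoAs included several of the largest deficits. The list had 5 of 25 members lower and 0 higher (20%), though its median was -0.08. Ces4a, a carboxylesterase, had 4.46 and 5.81 in REDD1 KO FA epidermis against 8.12 and 9.18 in wild-type FA epidermis (difference -3.51, adjusted p = 0.00712). Lpl, lipoprotein lipase, had 8.00 and 6.50 against 9.35 and 9.35 (difference -2.10, adjusted p = 0.0248), with REDD1 KO FA replicate 1 the higher of its pair. Mgll and Acot5 belong here too.

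Outside the list, Pnpla5, a triglyceride lipase (-3.43, adjusted p = 0.0114), Aadacl4, of the arylacetamide deacetylase family (-3.21, adjusted p = 0.00581), and Acsm3, a medium-chain acyl-CoA synthetase (-3.21, adjusted p = 0.00989), were among the 20 largest negative differences. Hilpda, a lipid droplet protein that inhibits the lipase ATGL and is induced by hypoxia, had 6.84 and 7.95 in REDD1 KO FA epidermis against 9.61 and 10.88 in wild-type FA epidermis (difference -2.85, adjusted p = 0.0077). With vehicle its genotype difference was 0.04, and its second probe gave -2.79 under FA. Of these 8 genes, Acot5 and Mgll kept their call without each array, while the other 6 lost it without wild-type FA replicate 2 (adjusted p 0.0585 to 0.144), Mgll and Hilpda being taken at the probe whose signals are given. The second Hilpda probe kept its call in every alternative setting, and the other 2 Mgll probes lost theirs without either wild-type FA array (adjusted p up to 0.185). Pnpla5 and Lpl lost it without wild-type FA replicate 1 as well (0.0514 and 0.12), and Lpl without REDD1 KO FA replicate 2 (0.0614).

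Retinoid metabolism and alcohol dehydrogenases had 5 of 21 genes lower and 0 higher (23.8%, median -0.11). After Adh7 came Rdh11, a retinol dehydrogenase, with 6.67 and 7.67 in REDD1 KO FA epidermis against 9.48 and 10.58 in wild-type FA epidermis (difference -2.86, adjusted p = 0.0133), the acyltransferase Dgat1 (-1.55, adjusted p = 0.0367), which esterifies retinol as well as diglyceride, and the retinoic acid carrier Crabp2 (-0.95, adjusted p = 0.0397). Among 19 cytochrome P450 genes 3 were lower and 1 higher. Cyp2g1 had 5.62 and 7.83 in REDD1 KO FA epidermis against 11.32 and 12.52 in wild-type FA epidermis (difference -5.19, SE 1.12, adjusted p = 0.0296), with a spread that was also wide with vehicle, at 6.38 and 9.67 in the KO and 11.68 and 9.41 in the wild type. Cyp17a1, the steroid 17-hydroxylase, was lower (-1.59, adjusted p = 0.0327), and Cyp27a1, the sterol 27-hydroxylase, was higher (1.22, adjusted p = 0.0465). The other 2 probes of Cyp27a1 did not pass (1.07 and 0.90, adjusted p 0.145 and 0.17). None of the 6 genes after Adh7 kept its call throughout. All 6 lost it without REDD1 KO FA replicate 1 (adjusted p 0.0541 to 0.122), all 6 without wild-type FA replicate 2 (0.117 to 0.206), all but Rdh11 without wild-type FA replicate 1 (0.0568 to 0.22), all but Rdh11 and Cyp2g1 without REDD1 KO FA replicate 2 (0.0562 to 0.168), and Crabp2 without either KO vehicle array (0.0632).

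Glutathione and antioxidant genes were called in both directions, 6 of 36 lower and 2 higher (22.2%). Mgst1, a membrane glutathione transferase, was lower on both of its probes. The brighter differed by -2.54 (adjusted p = 0.0414) and by -0.26 with vehicle, and the other, below background in the KO, was at least 5.82-fold lower under FA (adjusted p = 0.00989) and at least 10.8-fold lower with vehicle. Also lower were the transferase Gsta3 (-1.80, adjusted p = 0.0174) and Gpx4, which reduces lipid hydroperoxides (-1.31, adjusted p = 0.0155). Gsto1, an omega-class transferase, was higher, with 10.13 and 10.34 in REDD1 KO FA epidermis against 8.68 and 9.05 in wild-type FA epidermis (difference 1.37, adjusted p = 0.00499), and Gstt3 was higher by 0.97 (adjusted p = 0.0151). Gsto1 kept its call without each array. Of the brighter Mgst1 probe, Gsta3, Gpx4 and Gstt3, all 4 lost it without wild-type FA replicate 1 or 2 (adjusted p 0.0801 to 0.219), all but Gpx4 without REDD1 KO FA replicate 1 (0.0594 to 0.14), and Gpx4 without replicate 2 (0.0736).

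Genes of terminal keratinocyte differentiation were lower in part. Of 44 tested, 8 were lower and 0 higher (18.2%), 34 lay below 0, and the median was -0.39 under FA and 0.00 with vehicle. Lce1e, a late cornified envelope protein of a multigene family, had 6.63 and 6.42 in REDD1 KO FA epidermis against 8.77 and 8.84 in wild-type FA epidermis (difference -2.28, adjusted p = 0.00253), and its second probe agreed at -2.23. Rptn, repetin, an envelope precursor, had 6.60 and 5.84 against 7.87 and 9.20 (difference -2.32, adjusted p = 0.0324), with a second probe at -2.17, and differed by 0.70 with vehicle. Krt1, the main type II keratin of suprabasal cells, averaged 7.46 ± 0.65 against 9.57 ± 0.38 (SD, n = 2 each; difference -2.11, adjusted p = 0.00997). In these 3 genes REDD1 KO FA replicate 1 was the higher of its pair, the other way round from most sebaceous genes.

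The suprabasal keratin Krt77 (-1.63, adjusted p = 0.00491), the desmosomal cadherin Dsc1 (-1.08, adjusted p = 0.0211) and filaggrin-2, Flg2 (-0.82, adjusted p = 0.0197), were lower as well. Defining genes of the same stages did not pass: Krt10 differed by -0.12 (adjusted p = 0.673), loricrin, Lor, by 0.04 (adjusted p = 0.888) and involucrin, Ivl, by -0.45 (adjusted p = 0.105). In the basal list 1 of 11 was called, the keratin Krt15 of basal and hair follicle bulge cells, which was higher (0.79, adjusted p = 0.0475). The cytokine Il1a was lower by 1.22 on the log2 scale, at 6.74 and 7.12 in REDD1 KO FA epidermis against 8.10 and 8.20 in wild-type FA epidermis (adjusted p = 0.0126). Of Rptn, Lce1e, Krt1, Krt77, Dsc1, Il1a and Krt15, Lce1e kept its call without each array and the other 6 lost it without wild-type FA replicate 2 (adjusted p 0.0546 to 0.199). Il1a, Dsc1 and Krt15 lost it without wild-type FA replicate 1 (0.0715 to 0.187), these 3 and Rptn without REDD1 KO FA replicate 1 (0.0505 to 0.162), Rptn and Krt15 without replicate 2 (0.0595 and 0.139), and Krt15 without either KO vehicle array (0.0607).

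Antimicrobial genes that were called were all lower in the KO. Of 19 tested, 5 were lower and 0 higher (26.3%), although the list's median was -0.08 and Lcn2 lost its call with no probe filter (adjusted p = 0.0536). Defb8 is counted among the 5, and its probe passed the filter only through the wild-type FA pair, where it was high. The share of the list called lower rests in part on that. Defb8, Mpo and Wfdc12 are described above. Lcn2, lipocalin-2, which withholds iron from bacteria by binding their siderophores, had log2 signals of 4.84 and 5.04 in REDD1 KO FA epidermis against 6.50 and 7.93 in wild-type FA epidermis (difference -2.27, adjusted p = 0.0119). Its vehicle signals were 4.35 to 4.72 in both genotypes, so this gene, too, was higher on the wild-type FA arrays than on the other 6. The remaining called gene, not named here, differed by -1.97. With vehicle, 1 of the 19 genes was called lower, and it was not Defb8, Mpo, Wfdc12 or Lcn2.

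Among 25 tested classical targets of the glucocorticoid receptor, 3 were lower and 1 higher (16%), with a median of -0.09. Socs2, a suppressor of cytokine signalling, had 6.32 and 7.55 in REDD1 KO FA epidermis against 8.96 and 9.93 in wild-type FA epidermis (difference -2.51, adjusted p = 0.0228), and 0.72 with vehicle. The transcription factor Cebpb was lower (-0.68, adjusted p = 0.034), and Klf9, a Krüppel-like factor induced by glucocorticoids, was higher (0.85, adjusted p = 0.046). Lcn2 was the remaining call.

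Fkbp5, a co-chaperone of the receptor and one of its strongest targets, had log2 signals of 10.34 and 10.39 in REDD1 KO FA epidermis against 10.86 and 10.88 in wild-type FA epidermis. That difference of -0.51 did not pass (SE 0.69, adjusted p = 0.694). The SE is shared by all groups of the fit, and the wild-type vehicle arrays alone spread over 9.31 and 6.45. Tsc22d3 (GILZ) differed by 0.44 (adjusted p = 0.606), Per1 by 0.45 (adjusted p = 0.468), Sgk1 by 0.21 (adjusted p = 0.526) and Pdk4 by 1.01 (adjusted p = 0.259). Of 15 genes for the receptor and its chaperones 1 was called, Fkbp4, the co-chaperone FKBP52, which was lower by 0.76 on the log2 scale (adjusted p = 0.0382). The receptor's own probe, Nr3c1, was below background on all 4 FA arrays. Socs2, Cebpb, Klf9 and Fkbp4 lost their call without REDD1 KO FA replicate 1 (adjusted p 0.0519 to 0.0987), wild-type FA replicate 1 (0.0565 to 0.183) or wild-type FA replicate 2 (0.153 to 0.206). All but Socs2 lost it without REDD1 KO FA replicate 2 (0.15 to 0.159), and Cebpb and Fkbp4 without either KO vehicle array (0.0528 and 0.0577).

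The promoters of the called genes were read for a glucocorticoid response element, the sequence the receptor dimer binds, with the half-sites GNACA and TGTNC separated by 3 bases and searched on both strands in 300 bases around the gene start (250 before, 50 after; RefSeq, GRCm38.p6). It was present in 0.463% of 27025 promoters, in 1 of 278 promoters of genes called higher and in 1 of 363 of genes called lower. Among receptor targets it was in 1 of 22 promoters, that of the metallothionein Mt1, which differed by 0.24 (adjusted p = 0.564). The called gene whose window is shown is Serpina3n, and both are printed with the element in capitals to show how the letters lie; a match is only a description of the sequence.
Serpina3n, chr12:104406622-104406651, plus strand: agcacagaGCACAGCTTGTCCatgccagca
Mt1, chr8:94178987-94179016, plus strand: cactatagGGACATGATGTTCcacacgtca

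Genes of the PI3K and mTOR pathway, on which REDD1 acts, were called in 5 of 29 cases, 2 higher and 3 lower (17.2%, median 0.02). Besides Ddit4 itself the lower ones were Akt1s1, which encodes the mTORC1 inhibitor PRAS40, and Eif4e, the cap-binding factor. Akt1s1 had 7.74 and 7.24 in REDD1 KO FA epidermis against 8.39 and 8.22 in wild-type FA epidermis (difference -0.82, adjusted p = 0.0451). Eif4e was near background in the KO, at least 1.41-fold lower (adjusted p = 0.0258). Pik3ca, a catalytic subunit of PI3K, was higher (0.69, adjusted p = 0.0357).

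Autophagy genes were called in 5 of 33 cases, 4 higher and 1 lower (15.2%, median 0.21). Map1lc3b, LC3B, the ubiquitin-like protein that coats autophagosomes, had 9.46 and 9.52 in REDD1 KO FA epidermis against 8.53 and 8.56 in wild-type FA epidermis (difference 0.94, adjusted p = 0.0173). Tecpr2, which binds LC3 family proteins, was higher by 0.88 (adjusted p = 0.0182) and Atg5, part of the LC3 conjugation machinery, by 0.60 (adjusted p = 0.0486), its second probe at 0.28 not passing. Vmp1, a membrane protein of autophagosome formation, was lower on 1 probe (-1.53, adjusted p = 0.0118), while its 4 other probes, at -1.01, -0.18, -0.09 and 0.14, were not called. None of Akt1s1, Eif4e, Pik3ca, Map1lc3b, Tecpr2, Atg5 and Vmp1 kept its call throughout. All 7 lost it without wild-type FA replicate 2 (adjusted p 0.0846 to 0.215), 6 without wild-type FA replicate 1 (0.1 to 0.207), 6 without REDD1 KO FA replicate 2 (0.06 to 0.207), and Eif4e, Atg5, Pik3ca and Map1lc3b without replicate 1 (0.0533 to 0.117). Akt1s1, Atg5 and Pik3ca lost it without either KO vehicle array (0.0567 to 0.0772), and Atg5 without either wild-type vehicle array (0.057).

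Genes of nutrient and oxygen stress, the signals that raise REDD1, were called in both directions. In the list of amino acid transport and the ATF4 response 5 of 32 were lower and 1 higher (18.8%). Atf4, the transcription factor of that response, had 5.39 and 4.42 in REDD1 KO FA epidermis against 6.72 and 6.77 in wild-type FA epidermis (difference -1.84, adjusted p = 0.00766), and -1.45 with vehicle (adjusted p = 0.0771). Nupr1 (-1.65, adjusted p = 0.0334), a stress-induced chromatin protein, and Slc3a2 (-0.90, adjusted p = 0.0148), the heavy chain of amino acid exchangers, were lower. Asparagine synthetase, Asns, was higher (1.08, adjusted p = 0.00881), though its second probe, at 0.63, did not pass (adjusted p = 0.0956).

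Among 28 glycolysis and hypoxia genes 3 were higher and 3 lower, with Hilpda and the hexokinase Hk2 (-0.90, adjusted p = 0.0382) lower. Pfkfb4, which sets fructose-2,6-bisphosphate, was higher (1.21, adjusted p = 0.0214), as was the vasodilator peptide adrenomedullin, Adm (1.09, adjusted p = 0.00598). All of Atf4, Nupr1, Slc3a2, Asns, Hk2, Adm and Pfkfb4 lost their call without wild-type FA replicate 2 (adjusted p 0.0579 to 0.213). Without wild-type FA replicate 1, 5 did (0.0514 to 0.109), without REDD1 KO FA replicate 1, 3 (0.0692 to 0.107), without replicate 2, 4 (0.0584 to 0.15), and Nupr1 also without either KO vehicle array (0.0528).

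Ribosome biogenesis genes were called in 4 of 42 cases, 3 higher and 1 lower, Mak16 being the lower one. Nop58, a core protein of box C/D snoRNPs, had 10.43 and 10.36 in REDD1 KO FA epidermis against 8.99 and 8.64 in wild-type FA epidermis (difference 1.58, adjusted p = 0.00275), and 1.54 with vehicle. The nucleolar proteins Pes1 (0.98, adjusted p = 0.0163) and nucleolin, Ncl (0.87, adjusted p = 0.0148), were higher under FA, at 0.05 and 0.10 with vehicle. A second Ncl probe, at 0.49, did not pass (adjusted p = 0.101). Nop58 kept its call without each array, and Pes1 and Ncl lost theirs without REDD1 KO FA replicate 1 (adjusted p 0.0553 and 0.0611), wild-type FA replicate 1 (0.0666 and 0.0901) or replicate 2 (0.124 and 0.125). For subunits of oxidative phosphorylation, 51 of 61 lay below 0, by a median of only -0.20, with 4 called lower and 2 higher (9.84%).

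Of 14 circadian genes tested, 3 were higher and 0 lower (21.4%) and 4 lay below 0, with a median of 0.40 under FA and 0.08 with vehicle. Dbp, a PAR bZIP transcription factor driven by CLOCK and BMAL1, had 9.99 and 9.74 in REDD1 KO FA epidermis against 8.75 and 8.69 in wild-type FA epidermis (difference 1.15, adjusted p = 0.00595), and 0.05 with vehicle. Tef, a second PAR bZIP factor, had 9.74 and 9.97 against 8.81 and 8.90 (difference 1.00, adjusted p = 0.0237). Bhlhe40 (DEC1), a repressor in the clock, had 9.26 and 9.27 against 8.71 and 8.16 (difference 0.83, adjusted p = 0.0486).

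Core clock genes did not pass, among them Arntl (BMAL1) at -0.30 (adjusted p = 0.462), Clock at -0.09 (adjusted p = 0.802), Nr1d1 at 0.01 (adjusted p = 0.986) and Per2 at 0.45 (adjusted p = 0.518). Dbp, Tef and Bhlhe40 all lost their call without wild-type FA replicate 2 (adjusted p 0.0605 to 0.271). Tef and Bhlhe40 lost it without wild-type FA replicate 1 (0.0567 and 0.128), likewise without REDD1 KO FA replicate 2 (0.104 and 0.15), and Bhlhe40 without REDD1 KO FA replicate 1 (0.116) or either KO vehicle array (0.0713). The sources used here do not give the hour at which each group was sampled. CLOCK and BMAL1 bind the E-box CACGTG, which on either strand was present in 7.24% of the 27025 promoters, in 10.3% of 7599 promoters of tested genes, and in 3 of 12 circadian promoters. The E-boxes of Tef, which was called, and of Per1, which was not, are printed in capitals to show the element in this list.
Tef, chr15:81802534-81802563, plus strand: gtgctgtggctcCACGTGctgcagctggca
Per1, chr11:69098771-69098800, plus strand: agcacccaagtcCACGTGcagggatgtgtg

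The largest positive difference was that of Klk1b22, a glandular kallikrein of a family of near-identical copies that 1 probe may not separate. It had log2 signals of 9.02 and 9.42 in REDD1 KO FA epidermis against 4.32 and 6.20 in wild-type FA epidermis (difference 3.96, adjusted p = 0.00484), and 2.96 with vehicle. Its relative Klk1b27 was at least 2.54-fold higher (adjusted p = 0.00253). Rab6b, a GTPase of Golgi transport, had 8.09 and 8.09 against 4.52 and 4.85 (difference 3.41, adjusted p = 0.000678), and 2.65 with vehicle. Klk1b22 and Rab6b were thus among the genes higher in the KO in both treatments.

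Serpina3n, an inhibitor of serine proteases, had 10.91 and 10.91 in REDD1 KO FA epidermis against 8.56 and 8.49 in wild-type FA epidermis (difference 2.39, adjusted p = 0.00998). Lama1, a laminin chain of basement membranes, had 8.58 and 8.95 against 7.13 and 6.07 (difference 2.17, adjusted p = 0.00968). Smoc1, a calcium-binding matrix protein, had 6.81 and 7.24 against 5.12 and 4.71 (difference 2.11, adjusted p = 0.00533). In each the KO pair lay above the wild-type pair, by more than the gap within either pair. The KO pair lay above in 29.3% of all tested probes, whatever the gap.

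Nuak1, an AMPK-related kinase, had 10.21 and 10.84 in REDD1 KO FA epidermis against 8.68 and 8.84 in wild-type FA epidermis (difference 1.77, adjusted p = 0.00376). Its second probe, at 0.81, did not pass (adjusted p = 0.0664). The vesicle GTPase Rab15 was higher by 1.78 (adjusted p = 0.00356), Prr15l by 1.89 (adjusted p = 0.000678) and the focal adhesion protein Lims2 (PINCH2) by 1.70 (adjusted p = 0.0073). The tyrosine phosphatase Ptpre was higher on 1 probe (1.99, adjusted p = 0.00647) and not called on another (0.35, adjusted p = 0.502), and the vesicle SNARE Vamp1 was higher on 2 probes (2.09 and 1.95) and not called on 2 others (0.10 and -0.09). Ttr, transthyretin, a carrier of thyroxine and retinol-binding protein, was higher by 2.32 (adjusted p = 0.0266), Ccn2 (CTGF) by 1.77 (adjusted p = 0.0421) and Depp1, a FOXO target, by 1.79 (adjusted p = 0.0335).

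Of these 15 genes Klk1b22, Klk1b27, Rab6b, Ptpre, Prr15l, Rab15 and Nuak1 kept their call without each of the 8 arrays. Without wild-type FA replicate 2 the other 8 lost it (adjusted p 0.0592 to 0.149). Lims2, Ccn2, Depp1, Ttr and Serpina3n lost it without wild-type FA replicate 1 (0.0565 to 0.2), Ccn2, Depp1 and Ttr without REDD1 KO FA replicate 2 (0.0548 to 0.168), Ccn2 and Depp1 without replicate 1 (0.0692 and 0.115), and Ccn2 without either KO vehicle array (0.0643).

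**Figure D5:**
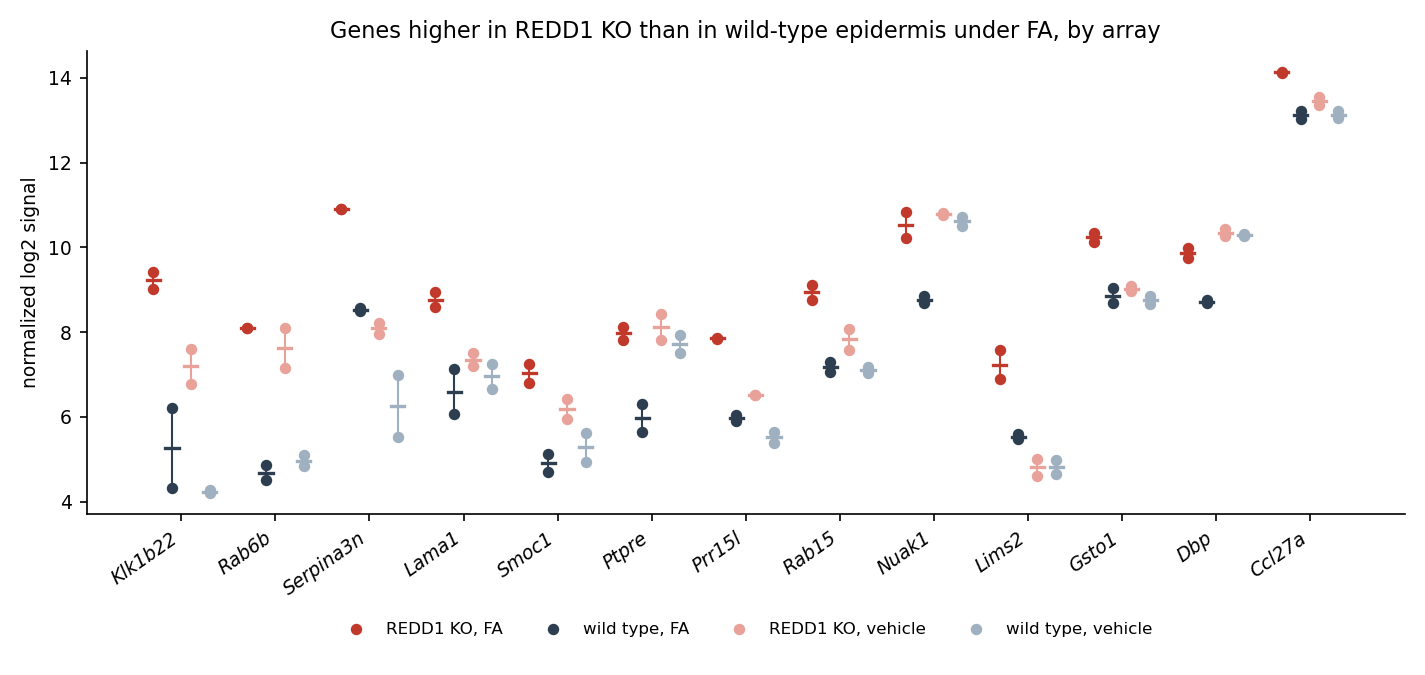
Log2 signal of 13 genes that were higher in REDD1 KO FA than in wild-type FA epidermis, on each of the 8 arrays, with group means as horizontal ticks. Rab6b and Klk1b22 are also higher in the KO with vehicle, whereas Dbp has similar signals in both genotypes with vehicle and is lower on the wild-type FA arrays.

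The lists of antigen presentation, immune cells, chemokines, complement and interferon-induced genes gave 1 or 2 calls each. Their shares ran from 3.33% (interferon-induced) to 14.3% (complement), beside 7.37% of all tested genes. H2-Ab1 and Cd74, genes of class II antigen presentation by Langerhans cells and macrophages, were low under FA in both genotypes. Cd74 had 8.06 and 9.05 in REDD1 KO FA epidermis and 9.02 and 9.32 in wild-type FA epidermis (difference -0.61, adjusted p = 0.253), beside 11.11 to 11.60 on the 4 vehicle arrays. For H2-Ab1 the difference was -0.63 (adjusted p = 0.255). In the class II list 1 of 11 was called, H2-DMb1, a chaperone of peptide loading, at -0.64 (adjusted p = 0.0434).

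The keratinocyte chemokine Ccl27a, which draws T cells to skin, had 14.12 and 14.14 in REDD1 KO FA epidermis against 13.21 and 13.03 in wild-type FA epidermis (difference 1.01, adjusted p = 0.00993), with a second probe at 1.11. Complement C2 (1.13, adjusted p = 0.0174) and the complement inhibitor Cd59a (0.90, adjusted p = 0.0383) made 2 of 14 complement genes, both higher. Fcer1g, the common Fc receptor gamma chain (0.98, adjusted p = 0.0392), was 1 of 18 in the Langerhans cell and macrophage list, and Gbp2b, a guanylate-binding protein (1.04, adjusted p = 0.017), 1 of 30 among interferon-induced genes, a share of 3.33%.

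Gpnmb, a glycoprotein of melanosomes and macrophage lysosomes, had 12.43 and 12.65 in REDD1 KO FA epidermis against 10.83 and 10.90 in wild-type FA epidermis (difference 1.67, adjusted p = 0.0462), with all 4 of its probes higher. Signal summed over 4 tested melanocyte genes, Gpnmb among them, was 5582 and 6483 in REDD1 KO FA epidermis against 1890 and 1989 in wild-type FA epidermis. Nearly all of that sum was the Gpnmb signal. The list's median log2 difference was 0.02, with 2 of the 4 below 0 and Gpnmb the only call. The melanocyte genes Dct, Mlana, Tyr and Tyrp1 were not detected. Of these 7 immune and pigment genes, Gpnmb at its brightest probe, none kept its call without wild-type FA replicate 2 (adjusted p 0.0985 to 0.198), though another Gpnmb probe (1.46, adjusted p = 0.00571) kept its call in every alternative setting. Without wild-type FA replicate 1 all but Ccl27a lost it (0.0514 to 0.217), 5 lost it without REDD1 KO FA replicate 1 (0.0527 to 0.127), 5 without replicate 2 (0.0771 to 0.173), and H2-DMb1, Cd59a, Fcer1g and Gpnmb without either KO vehicle array (0.0521 to 0.0686).

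Proliferation genes were called at or below the rate of all genes. Of 39 DNA replication genes none passed in limma, though 9 higher and 3 lower had an unadjusted p under 0.05. At that level 1727 of all 13131 tested probes were higher and 1605 lower. Of 27 mitosis genes 1 was higher. Among 10 ligands and receptors of the EGF family none passed.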

How the data were processed

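Illumina MouseRef-8 v2.0 arrays were hybridized with epidermal RNA of 8 mice, 2 per group. The authors deposited bead signal intensity per probe, summarized at a core facility with no background subtracted, and a detection p-value for each, set against the negative controls of the same array. They also deposited log2 values made with the neqc function of limma (their version is not stated), which subtracts background by negative controls, adds an offset and normalizes by quantiles, a step that gives every array the same distribution. The deposited log2 values were used here. Rebuilt from the intensities (offset 16; of 832 control lines, 798 taken as negative and 34 as other controls), they differed by at most 5e-09. Neither the control lines nor 2 broken text lines entered a test.

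Tests covered probes detected (detection p under 0.05) on 2 or more of the 8 arrays. A limma model (3.58.1, R 4.3.3) with 1 mean per group on all 8 arrays gave two-sided moderated p-values (4 residual and 5.08 prior degrees of freedom), adjusted by Benjamini-Hochberg over all tested probes. This procedure was tested on simulated data. Samples were grouped by their titles. An adjusted p under 0.05 is a call. A gene below background on both arrays of its dimmer group has its fold as a lower bound, the brighter group's mean over the higher of the probe's own and the lowest detected signal. Platform symbols were brought up to date by entrez number for 23962 probes and by accession for 9, while 7 were kept and 1719 probes have none. In lists a gene is represented by its brightest probe. The number of arrays limits the precision.

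The comparison, the 47 gene lists and the rule for named genes were chosen with earlier results of these data known. The rule took Ddit4, the genes the study names for its arrays, the 20 largest called differences in each direction, probes called for dependence on FA with the 5 largest such differences in each direction, up to 4 called members per list (2 uncalled where none was called) and called genes of chromosome 10. Further list members named in the text (Plin2, Plin5, Far1, Fabp5, Scd1, Pparg, Awat2, Fasn, Flg2, Ddit4l, core clock genes, receptor targets and others) were chosen after their values were seen. Alternatives covered background correction, offset, scaling, probe filter, arrays fitted, variance model, array weights, replicate block and each array left out. Promoters are RefSeq sequences of GRCm38.p6, with the first listed start of a gene.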

Additional observations from a re-analysis of the deposited data

Results flagged for a closer look

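In 4 genes the genotype difference under FA minus that with vehicle, tested in the same limma fit, passed the threshold. It was -4.87 on the log2 scale for Defb8 (SE 0.376, adjusted p = 0.00485), -3.34 for 1 of 3 probes of Mgll (SE 0.393, adjusted p = 0.0419), -2.63 for 1 of 3 probes of Mpo (SE 0.267, adjusted p = 0.0162) and -2.43 for Acot5 (SE 0.23, adjusted p = 0.0139). On both REDD1 KO FA arrays each lay below both wild-type FA arrays, as did 26.6% of all tested probes. With vehicle the genotype differences were -0.06 for Defb8, -0.37 for Mgll, -0.06 for Mpo and -0.02 for Acot5. The Defb8 probe was detected on the wild-type FA arrays alone and passed the probe filter only through them. With no probe filter, 0 probes were called for dependence on FA.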

How the results depend on the processing

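Under FA, 412 probes were higher and 528 lower in REDD1 KO epidermis, 60 were also called with vehicle and 4 depended on FA. Median centring gave 193 higher, and testing all probes without a filter 350 lower. Probes called in both treatments numbered 34 without background correction, 37 with no filter and 33 with probes detected on all 8 arrays. Dependence on FA was called for 0 probes in each of these 3 settings, for 1 with an offset of 50 and for 8 with trended, robust variances. Leaving out 1 array gave 26 to 428 higher, 65 to 537 lower, 17 to 51 in both treatments and 0 to 31 that depended on FA, the lowest counts under FA being those without wild-type FA replicate 2. Replicate differences of the groups correlated between -0.107 and 0.252, not above 0.1 in every pair of groups, so the replicate numbers were not taken to pair the samples. A fit with the replicate block gave 340 higher, 467 lower, 53 in both and 4 that depended on FA, and 23 named calls were lost with the block. Over 173 named probes and 19 settings, 2521 values kept direction and call, 708 lost the call, 12 gained it and 4 changed sign. Those 4 were uncalled: Ttn was -0.83 and Actn3 -0.56 without REDD1 KO FA replicate 1 (3.84 and 4.26 without replicate 2), and Rhag was -0.17 without REDD1 KO FA replicate 1 and -0.15 without wild-type FA replicate 1 (up to 0.21 without REDD1 KO FA replicate 2). Other probes of a called gene went the other way for Rbms2 (-0.42 and -0.16), Vamp1 (-0.086) and Vmp1 (0.14). The cause was not tested. The arrays detected at most 46.7% of the probes, and dim signal limits folds of dim genes to bounds.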
